A study of Mus musculus with 9 samples.

Results

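The lysosome and autophagy genes other than the cathepsins were examined in mouse MC38 cells, as 31 genes chosen by name and found by symbol among 16399 genes in the deposited expression tables. All 31 were listed and all 31 reached 1 TPM (the share of transcripts scaled to a fixed total and corrected for gene length) in at least 3 libraries, so none was left untested. Their lowest value in any library was 4.97 TPM, for Neu1. MC38 is a mouse colon carcinoma line, here carrying GFP and firefly luciferase. MC38-P was the parental population. MC38-LM3a and MC38-LM3b came from it through 3 rounds of intrasplenic injection into C57BL/6 mice, each round followed by dissociation of the liver metastases and expansion of the tumour cells in culture. All 3 groups were cultured cells that carried the same reporters, MC38-P had not been passed through mice in this scheme, and each derivative is 1 line. The study calls the derivatives independent but names a single line for each of the earlier rounds, so they may share that history. Each group had 3 libraries of poly(A) RNA, described in the study as biological replicates. Neither the labels nor the study says whether they came from separate cultures, and if they did not, the p-values below measure only the spread between these libraries.

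Lysosomes are acidic compartments in which soluble hydrolases, delivered from the Golgi or from the cell surface, break down proteins, glycans and lipids behind a membrane protected by heavily glycosylated proteins. Autophagy brings cytoplasmic cargo to them: an initiation kinase and a lipid kinase complex start a membrane, LC3-family proteins are attached to it, and adaptors hold the cargo. The MiT/TFE transcription factors, among them TFEB and TFE3, bind short E-box elements in the promoters of many of these genes and are held in the cytoplasm by mTORC1 when nutrients are plentiful.

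Many of these genes were higher in the liver-metastatic derivatives than in MC38-P, by modest amounts, and how many depended on the scaling. In MC38-LM3a, 16 of the 31 were higher and 1 was lower at an adjusted p-value under 0.05 (limma on log2(TPM + 1), Benjamini-Hochberg over 11287 genes), beside 14.1% of all tested genes higher and 13.8% lower. In MC38-LM3b, 24 were higher and 1 was lower, beside 35.6% and 11.2% of all tested genes. The same 16 were higher in both derivatives (13.3% of all tested genes were) and Tfeb was lower in both (9.07% were). With every library centred on its median gene, 14 were higher in MC38-LM3b (45.2%, beside 22.9% of all tested genes) and 12 in both derivatives (38.7%, beside 15.9%). With single libraries left out in turn, 11 to 15 were higher in MC38-LM3a. No share of all tested genes is given for those fits, so that range cannot be set against the 14.1%. The increases were led by Naglu and Wipi1, which were 1.83-fold and 1.82-fold the MC38-P mean in MC38-LM3a and 2.13-fold and 2.16-fold in MC38-LM3b, as ratios of mean TPM. Man2b1 (1.49-fold and 1.85-fold) and Hexa (1.56-fold and 1.75-fold) were among the next largest, whereas Gla, Gaa, Gusb, Atg5, Atg7 and Sqstm1 passed the test in neither derivative. Both comparisons use the same 3 MC38-P libraries and are therefore not independent of each other.

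The levels of all tested genes differed between the lines in a way that bears on these counts. Against MC38-P, the median gene of all 11287 changed by 0.00 on the log2 scale in MC38-LM3a but by 0.21 in MC38-LM3b, and the member medians, 0.26 and 0.41, have to be read against those. Within MC38-P and MC38-LM3a, the third library stood apart from its replicates along transcript length. The deviation of MC38-LM3a replicate 3 from its replicates rose with transcript length across 11096 genes (Spearman 0.656) and that of MC38-P replicate 3 fell with it (Spearman -0.632), whereas for the MC38-LM3b libraries it lay between -0.0199 and 0.0262. These are descriptions across genes, which are not independent replicates. Of the 31 members, 74.2% had their highest MC38-LM3a value in replicate 3 and 71.0% their lowest MC38-P value in replicate 3, beside 74.5% and 75.5% of all tested genes. When a smooth trend on GC content and transcript length was removed from every library, 20 members were higher and 2 lower in MC38-LM3a (26.7% and 25% of the genes so tested), and 20 were higher and 3 lower in MC38-LM3b (29.2% and 28.7%). The member medians were then 0.24 and 0.27, beside 0.01 for all genes in each derivative. With MC38-P replicate 3 and MC38-LM3a replicate 3 both left out, a choice made after seeing the data, 16 members were higher and 3 lower in MC38-LM3a, beside 18.4% and 45.2% of all genes, and 26 were higher in MC38-LM3b, beside 46.3%. The part of transcript length in the single values was not tested beyond these recalculations, and values after the removal of the trend are given below as corrected log2 fold changes.

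**Figure D1:**
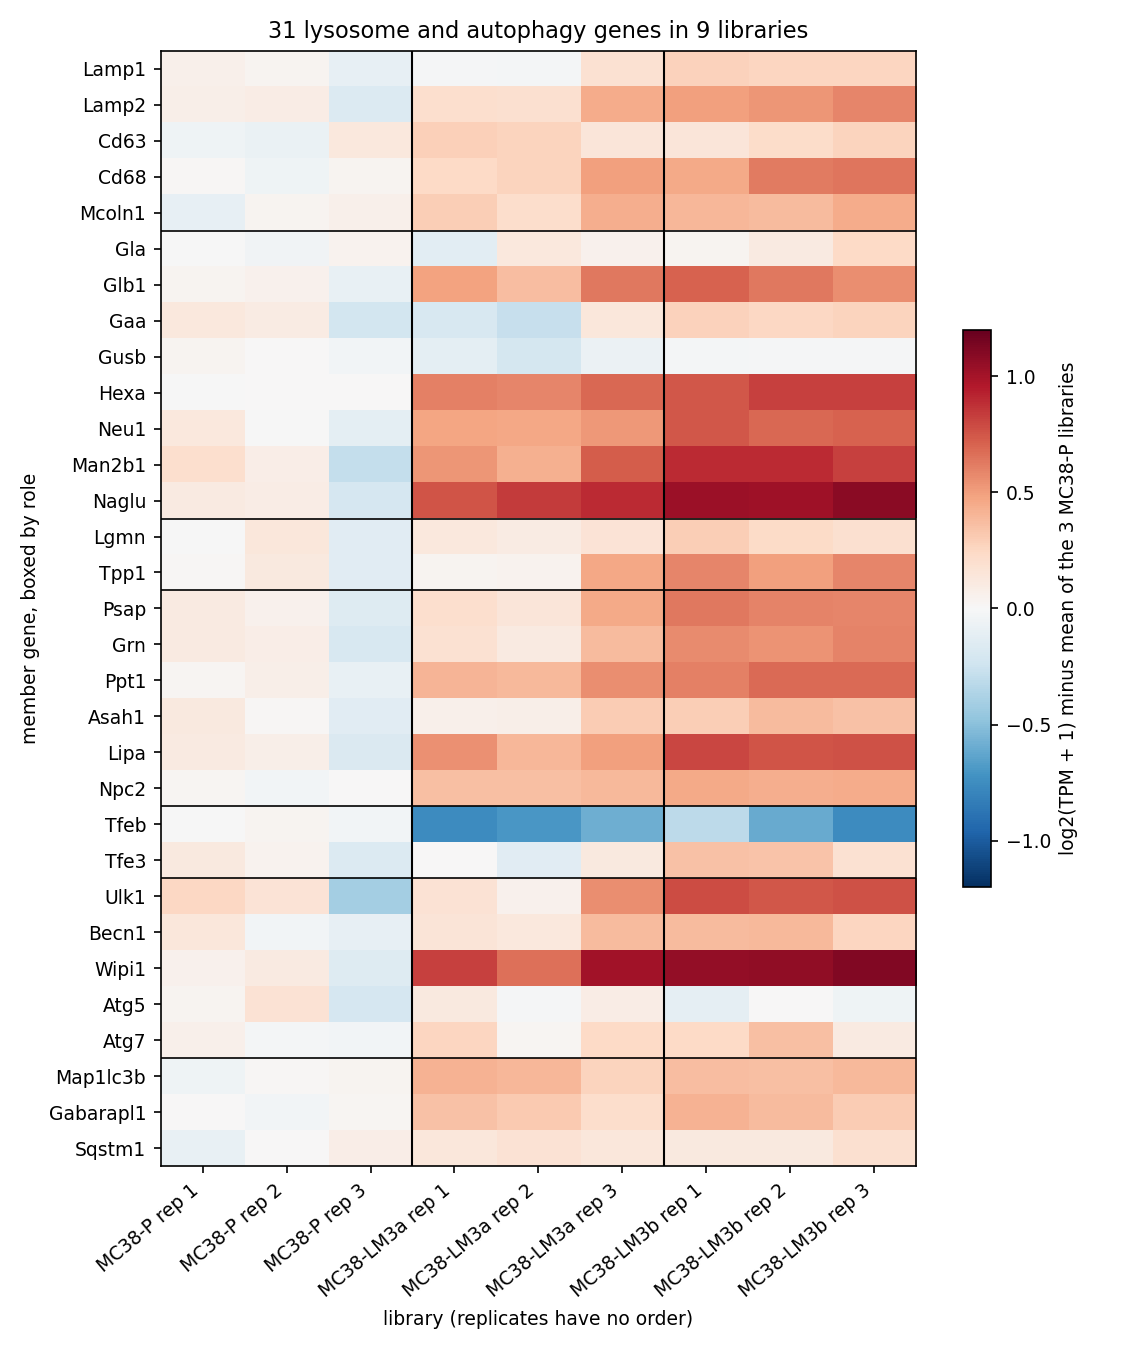
Each row is 1 of the 31 genes, boxed by role in the order in which the text takes them, and each column 1 of the 9 libraries. Colour gives log2(TPM + 1) minus the mean of the 3 MC38-P libraries, and Tfeb is the row that is clearly blue in all 6 derivative libraries, while Naglu, Wipi1, Man2b1 and Hexa are among the deepest red.

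Promoter sequences are shown for 6 members because the E-box CACGTG, the core of the element that MiT/TFE factors bind, was searched for in windows from 250 bases before to 50 bases after annotated start sites (RefSeq, GRCm38.p6). Capitals mark CACGTG, which reads the same on both strands, and every TCACGTGA, the longer palindrome also searched for, contains it. Lamp1 holds 4 copies, Mcoln1 and Gla hold 2, Glb1 and Naglu hold 1, and Wipi1, the member with the largest rise in MC38-LM3b, holds none in this window. The windows lie at chr8:13158911-13159210 on the plus strand (Lamp1), chr8:3500269-3500568 plus (Mcoln1), chr9:114400828-114401127 plus (Glb1), chr11:101069844-101070143 plus (Naglu), chrX:134600956-134601255 minus (Gla) and chr11:109611340-109611639 minus (Wipi1), each written 5′ to 3′ on the gene's strand.
Lamp1: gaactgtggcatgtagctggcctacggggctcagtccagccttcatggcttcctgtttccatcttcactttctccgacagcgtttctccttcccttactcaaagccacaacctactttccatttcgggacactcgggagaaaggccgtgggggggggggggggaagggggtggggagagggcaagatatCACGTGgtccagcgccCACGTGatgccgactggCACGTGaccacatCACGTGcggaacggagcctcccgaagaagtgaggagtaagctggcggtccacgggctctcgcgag
Mcoln1: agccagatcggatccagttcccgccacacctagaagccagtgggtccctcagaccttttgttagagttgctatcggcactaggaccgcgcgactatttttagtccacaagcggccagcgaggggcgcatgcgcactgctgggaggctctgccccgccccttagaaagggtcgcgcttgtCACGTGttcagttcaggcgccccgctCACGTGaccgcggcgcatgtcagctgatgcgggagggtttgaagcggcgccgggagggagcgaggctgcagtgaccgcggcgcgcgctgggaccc
Glb1: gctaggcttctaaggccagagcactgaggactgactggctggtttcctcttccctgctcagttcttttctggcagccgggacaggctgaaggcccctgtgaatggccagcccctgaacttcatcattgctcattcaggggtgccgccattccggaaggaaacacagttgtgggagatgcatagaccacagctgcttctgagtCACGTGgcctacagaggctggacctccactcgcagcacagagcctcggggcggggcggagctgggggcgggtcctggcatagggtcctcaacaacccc
Naglu: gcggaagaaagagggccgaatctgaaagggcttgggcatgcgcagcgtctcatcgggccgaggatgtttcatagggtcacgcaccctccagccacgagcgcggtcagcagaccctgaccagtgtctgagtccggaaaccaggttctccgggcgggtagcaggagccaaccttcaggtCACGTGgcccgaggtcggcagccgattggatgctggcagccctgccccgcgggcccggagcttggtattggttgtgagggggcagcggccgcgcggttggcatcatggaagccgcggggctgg
Gla: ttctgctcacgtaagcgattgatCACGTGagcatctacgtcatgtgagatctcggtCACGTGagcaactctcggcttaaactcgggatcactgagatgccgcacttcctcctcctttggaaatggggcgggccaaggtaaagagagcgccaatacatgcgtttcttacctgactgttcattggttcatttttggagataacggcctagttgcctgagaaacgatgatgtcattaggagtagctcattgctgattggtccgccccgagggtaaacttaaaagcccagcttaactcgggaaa
Wipi1: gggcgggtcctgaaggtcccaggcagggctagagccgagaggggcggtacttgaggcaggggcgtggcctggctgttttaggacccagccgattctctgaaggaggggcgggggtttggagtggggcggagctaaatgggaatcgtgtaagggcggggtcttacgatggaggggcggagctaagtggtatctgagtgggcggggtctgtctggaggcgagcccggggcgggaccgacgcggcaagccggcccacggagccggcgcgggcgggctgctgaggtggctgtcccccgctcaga

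Of the 29 members with a window in the table, 9 held CACGTG in at least 1 window (31%), beside 8.09% of 27025 genes in the table and 11.9% of the 9091 tested genes with a window. The first base of the element lay 71 and 45 bases before the start site in Mcoln1, 48 before it in Glb1, 73 before it in Naglu, and between 61 and 15 before it in Lamp1. TCACGTGA stood in 2 of the 29 (6.9%), Mcoln1 and Gla, beside 1.12% of all genes and 2.28% of tested genes. By expression call, 3 of the 16 members that were higher in both derivatives held CACGTG (18.8%: Mcoln1, Glb1 and Naglu), against 6 of the 13 other members (46.2%: Lamp1, Gla, Gaa, Lgmn, Atg5 and Atg7). These are counts of letters in a fixed window, given as a description without a test. Asah1 and Becn1 had no entry.

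The lysosomal membrane proteins comprised the glycoproteins Lamp1 and Lamp2, the tetraspanin Cd63, the macrosialin gene Cd68 and the calcium channel gene Mcoln1. All 5 were higher in MC38-LM3b and 4 of 5 in MC38-LM3a, beside 35.6% and 14.1% of all tested genes. In MC38-LM3b, 2 of the 5 were higher on centred values (beside 22.9% of all tested genes) and 4 after the correction (beside 29.2%). In MC38-LM3a, 3 of the 5 were higher under either setting, beside 19.8% on centred values and 26.7% after the correction. Lamp1, the most widely used marker of the lysosomal membrane, was measured at 319, 311 and 285 TPM in MC38-P, at 303, 300.4 and 346 in MC38-LM3a, and at 369, 365 and 364 in MC38-LM3b. Its MC38-LM3a values overlapped those of MC38-P, with 1 library above and 2 inside the parental range, and the MC38-LM3b values lay above all others. Its log2 fold changes, given here and below for MC38-LM3a first and with their standard errors, were 0.05 ± 0.07 (adjusted p = 0.638) and 0.26 ± 0.07 (adjusted p = 0.0103). The MC38-LM3b value is close to the 0.21 of the median gene, and that change was 0.09 after the correction and 0.04 on centred values, where it did not pass (adjusted p = 0.570).

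Lamp2, whose product also serves chaperone-mediated autophagy, had 129.9, 132 and 110.5 TPM in MC38-P, 142, 142 and 168 in MC38-LM3a and 175, 179 and 186 in MC38-LM3b. The 3 lines formed separate ranges in that order. Its log2 fold changes were 0.28 ± 0.09, adjusted p = 0.0369, and 0.54 ± 0.09, adjusted p = 0.000862, and the corrected values were 0.19 and 0.26. Without MC38-LM3a replicate 3 the MC38-LM3a change was 0.20, adjusted p = 0.0624. Cd68 stood at 29.1, 27.7 and 29.5 TPM in MC38-P, at 34.1, 34.8 and 40.9 in MC38-LM3a and at 39.7, 45.0 and 45.6 in MC38-LM3b. All derivative libraries were above all parental ones, and the changes were 0.33 ± 0.09 and 0.57 ± 0.09 (adjusted p = 0.0220 and 0.000795), with corrected values of 0.31 and 0.55.

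Cd68 is best known from macrophages, so macrophage genes were read in the same libraries. Of 17 macrophage markers 7 were listed, and the symbols of the others were not found among the 16399 genes. Cd14 alone passed the filter on low values, at 10.3 to 16.03 TPM. The other 6 summed to between 0.43 and 1.39 TPM in a library and none exceeded 0.79, with Csf1r at 0.14 or less, Lyz2 at 0.28 or less and the leukocyte gene Ptprc at 0.09 or less. The summed macrophage level ran from 11.1 to 12.3 TPM for MC38-P, from 13.3 to 16.5 for MC38-LM3a and from 14.8 to 16.4 for MC38-LM3b, nearly all of it Cd14, which was itself higher in both derivatives (0.39, adjusted p = 0.0191, and 0.44, adjusted p = 0.00658), although its MC38-LM3b change did not pass on centred values (0.22, adjusted p = 0.187). Below the filter, Mrc1 was at 0.52 to 0.79 TPM in the parental libraries against 0.33 to 0.47 in the derivatives, and Cd163 at 0.12 to 0.42 against 0.02 or less. In such bulk libraries, fewer cells of a type and less RNA per cell cannot be told apart. Of 8 markers of other blood cells 6 were listed and 1, Ncam1, was tested. Their sum lay between 17.9 and 26.5 TPM for MC38-P, between 14.5 and 24.5 for MC38-LM3a and between 23.7 and 25.9 for MC38-LM3b, most of it Ncam1, which also marks nerve cells and passed in neither derivative (-0.30, adjusted p = 0.250, and 0.13, adjusted p = 0.556). In MC38-LM3a, Ncam1 was lower after the correction (-0.30, adjusted p = 0.0380) and on centred values (-0.30, adjusted p = 0.0499). It was also lower there without MC38-LM3a replicate 3 (-0.47, adjusted p = 0.0341). Hepatocyte markers summed to 0.89 TPM or less in every library and endothelial markers to between 0.7 and 1.9 TPM.

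Markers of the labelled epithelial type and of fibroblasts moved with the lines. All 9 epithelial markers were listed and 6 were tested, and their sum lay between 2004 and 2318 TPM for MC38-P, between 1592 and 1812 for MC38-LM3a and between 1585 and 1630 for MC38-LM3b. Krt8 (-0.48 and -0.56), Krt18 (-0.24 and -0.32), Epcam (-1.14 and -1.07) and Cdx2 (-1.001 and -1.204) were lower in both derivatives, and the defining genes Cdh1 and Vil1 were at 0.08 and 0.13 TPM or less. Krt19 (0.39) and Krt20 (0.55) were called higher in MC38-LM3a but not in MC38-LM3b (-0.08, adjusted p = 0.413, and 0.33, adjusted p = 0.134). Their differences between the derivatives did not pass on the deposited values (adjusted p = 0.119 and 0.312). That of Krt19 passed after the correction (-0.55, adjusted p = 0.0376). On centred values the MC38-LM3a rises of Krt19 and Krt20 just missed the threshold (adjusted p = 0.0504 and 0.0507). The MC38-LM3a fall of Krt18 did not pass there either (-0.24, adjusted p = 0.215). Of 8 stellate and fibroblast markers 6 were listed and 3 tested, with sums between 13.3 and 19.98 TPM for MC38-P, between 6.16 and 8.55 for MC38-LM3a and between 9.33 and 9.55 for MC38-LM3b. Col1a1 was lower in both (-1.55 and -1.48), Pdgfrb was higher in MC38-LM3b (0.88), Pdgfra passed in neither and Dcn was at 0.13 TPM or less. Pdgfrb also passed as higher in MC38-LM3a after the correction (0.39, adjusted p = 0.00732) and on centred values (0.30, adjusted p = 0.0256). The part of these shifts in the changes of the lysosome and autophagy genes was not tested.

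Mcoln1 encodes the channel TRPML1, which releases calcium from lysosomes. It was at 17.7, 19.4 and 19.8 TPM in MC38-P, at 23.5, 22.2 and 25.9 in MC38-LM3a and at 25.4, 24.9 and 26.2 in MC38-LM3b. The derivatives overlapped each other and lay above MC38-P, with changes of 0.31 ± 0.09 (adjusted p = 0.0250) and 0.41 ± 0.09 (adjusted p = 0.00453). The MC38-LM3b change was 0.18 on centred values and did not pass there (adjusted p = 0.127). Cd63, found on late endosomes and exosomes, was the most abundant member, at 1188, 1170.4 and 1349 TPM in MC38-P, 1499, 1485 and 1366 in MC38-LM3a and 1364, 1437 and 1489 in MC38-LM3b. The highest MC38-P library, replicate 3, came close to the lowest derivative libraries without reaching them. The changes of 0.23 ± 0.07 (adjusted p = 0.0268) and 0.21 ± 0.07 (adjusted p = 0.0262) passed the test, but the MC38-LM3b change was -0.01 once every library was centred on its median, and the corrected values, 0.16 and 0.13, did not pass.

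The glycosidases cut sugars from glycoproteins, glycolipids and glycosaminoglycans. Of 8, the same 5 were higher in both derivatives, as were 13.3% of all tested genes, and the other 3 passed in neither. Naglu, which removes N-acetylglucosamine from heparan sulfate, was at 13.7, 13.5 and 10.9 TPM in MC38-P, at 21.9, 23.4 and 24.3 in MC38-LM3a and at 26.7, 26.6 and 27.8 in MC38-LM3b. No library of one line reached the range of another. Its log2 fold changes were 0.83 ± 0.10 (adjusted p = 0.000215) and 1.04 ± 0.10 (adjusted p = 3.72e-05), and the corrected values were 0.92 and 0.91. Naglu and Wipi1 were the 2 members past a log2 fold change of 1, both in MC38-LM3b alone, where 2.76% of all tested genes were that much higher. The difference between the derivatives themselves did not pass the test for either gene. All 3 MC38-LM3b libraries were above all 3 MC38-LM3a libraries for 38.4% of all tested genes. On centred values the Naglu difference between the derivatives was -0.01 (adjusted p = 0.938).

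Hexa encodes the alpha subunit of beta-hexosaminidase, which degrades ganglioside GM2. Its MC38-P values of 43.7, 44.1 and 44.1 TPM had an SD of 0.205, and it rose to 67.2, 66.6 and 71.2 in MC38-LM3a and 74.3, 78.3 and 78.2 in MC38-LM3b. The steps of 0.63 ± 0.06 and 0.79 ± 0.06 on the log2 scale had the smallest adjusted p-values of any member, 5.89e-05 and 8.84e-06. On centred values they were 0.62 and 0.57. Man2b1, the lysosomal alpha-mannosidase, varied more, at 24.1, 22.1 and 17.0 TPM in MC38-P, 30.5, 28.3 and 35.1 in MC38-LM3a and 39.7, 39.7 and 37.6 in MC38-LM3b. The lowest of these values was again in MC38-P replicate 3 and the highest MC38-LM3a value in its replicate 3, and the ranges stayed apart. The changes were 0.56 ± 0.13 (adjusted p = 0.00763) and 0.87 ± 0.13 (adjusted p = 0.000408). On centred values they were 0.56 and 0.65.

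Glb1, the lysosomal beta-galactosidase, had 20.7, 20.8 and 18.9 TPM in MC38-P, 28.5, 26.3 and 31.8 in MC38-LM3a and 33.5, 31.7 and 30.0 in MC38-LM3b. The derivative ranges overlapped and both were above MC38-P, with changes of 0.50 ± 0.09 (adjusted p = 0.00282) and 0.63 ± 0.09 (adjusted p = 0.000481). The sialidase gene Neu1 had 6.08, 5.44 and 4.97 TPM in MC38-P, 7.97, 7.94 and 8.27 in MC38-LM3a and 9.88, 9.44 and 9.60 in MC38-LM3b. It held the lowest single value of any member, and its 3 lines did not overlap. The changes were 0.48 ± 0.10 (adjusted p = 0.00548) and 0.71 ± 0.10 (adjusted p = 0.000382). On centred values the Neu1 changes were 0.48 and 0.49, and those of Glb1 were 0.50 and 0.41.

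The remaining glycosidases showed that not every hydrolase moved. Gusb, the beta-glucuronidase, had 58.3, 57.5 and 55.7 TPM in MC38-P, 52.8, 49.3 and 54.4 in MC38-LM3a and 56.3, 56.5 and 56.7 in MC38-LM3b. Its changes were -0.13 ± 0.07 (adjusted p = 0.175) and -0.02 ± 0.07 (adjusted p = 0.845). After the correction for GC content and length it was lower in both derivatives, at -0.16 (adjusted p = 0.00881) and -0.17 (adjusted p = 0.00454). Gaa, the acid alpha-glucosidase that degrades glycogen, had 86.4, 84.8 and 67.6 TPM in MC38-P, 69.3, 65.2 and 87.1 in MC38-LM3a and 96.2, 94.5 and 95.7 in MC38-LM3b. Its MC38-P and MC38-LM3a ranges overlapped, the third library of each standing away from its replicates, and its changes were -0.11 ± 0.12 (adjusted p = 0.543) and 0.27 ± 0.12 (adjusted p = 0.0824). With both of those libraries left out it was lower in MC38-LM3a, at -0.34 (adjusted p = 8.2e-05). With only MC38-LM3a replicate 3 left out it passed as higher in MC38-LM3b, at 0.27 (adjusted p = 0.0181). Gla, the alpha-galactosidase A, ran from 8.93 to 11.8 TPM over all 9 libraries, and its changes were 0.02 and 0.13 (adjusted p = 0.936 and 0.346).

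**Figure D2:**
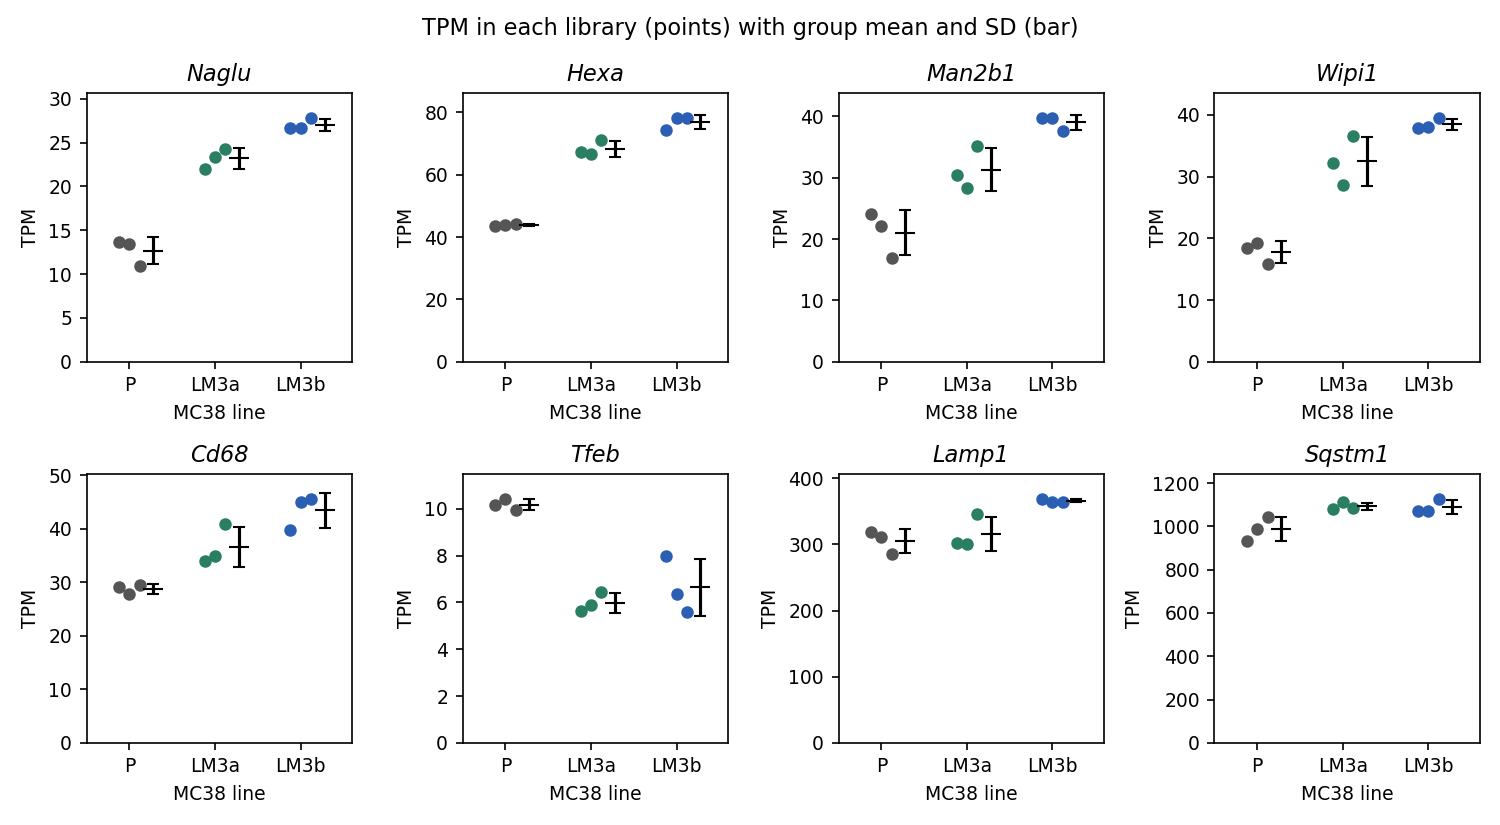
Points give TPM in each of the 9 libraries for 8 members on axes that start at 0, and the bar beside each group of 3 gives its mean and SD. Naglu, Hexa, Man2b1 and Wipi1 have separate ranges that are lowest for MC38-P and highest for MC38-LM3b, Tfeb is at 9.94 TPM or more in MC38-P and at 7.99 or less in the derivatives, and Lamp1 and Sqstm1 differ little on this scale. Every MC38-LM3b library was above every MC38-LM3a library for 38.4% of all tested genes.

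The member proteases other than cathepsins were Lgmn, an asparaginyl endopeptidase, and Tpp1, which removes tripeptides from protein ends. Both were higher in MC38-LM3b, as were 35.6% of all tested genes, and neither passed in MC38-LM3a on the deposited values, where 14.1% of all tested genes were higher. Lgmn ran from 63.6 to 76.9 TPM in MC38-P, from 74.7 to 78.3 in MC38-LM3a and from 79.8 to 85.9 in MC38-LM3b, with changes of 0.13 (adjusted p = 0.254) and 0.24 (adjusted p = 0.0279). Its MC38-LM3b change was 0.09 after the correction and did not pass (adjusted p = 0.181). Tpp1 had 34.4, 37.1 and 30.95 TPM in MC38-P, 34.9, 35.0 and 47.4 in MC38-LM3a and 51.6, 48.3 and 51.6 in MC38-LM3b. MC38-LM3a replicate 3 stood close to the MC38-LM3b range, and the other 2 MC38-LM3a libraries were inside the MC38-P range. The changes were 0.18 ± 0.12 (adjusted p = 0.304) and 0.55 ± 0.12 (adjusted p = 0.00396). After the correction Tpp1 was higher in both, by 0.19 (adjusted p = 0.0191) and 0.32 (adjusted p = 0.000896).

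The enzymes and cofactors that handle lipids or lipid-linked substrates numbered 6, of which 6 were higher in MC38-LM3b and 4 in MC38-LM3a, beside 35.6% and 14.1% of all tested genes. In MC38-LM3b, 4 were higher on centred values (beside 22.9% of all tested genes) and 5 after the correction (beside 29.2%). In MC38-LM3a, 6 were higher under either setting, beside 19.8% on centred values and 26.7% after the correction. Lipa, the acid lipase that frees cholesterol from its esters, was at 16.3, 15.8 and 13.2 TPM in MC38-P, at 22.4, 20.1 and 21.5 in MC38-LM3a and at 27.0, 26.0 and 26.2 in MC38-LM3b. The 3 ranges were separate, and the changes were 0.48 ± 0.10 (adjusted p = 0.00466) and 0.78 ± 0.10 (adjusted p = 0.000185). On centred values they were 0.48 and 0.55. Npc2, the carrier that takes up the freed cholesterol, was at 136, 130.5 and 134 TPM in MC38-P, at 172, 172 and 175 in MC38-LM3a and at 184, 181 and 182 in MC38-LM3b. The SD within a line was 2.65, 1.76 and 1.26 TPM, the ranges were separate, and the changes were 0.37 ± 0.05 (adjusted p = 0.000419) and 0.45 ± 0.05 (adjusted p = 9.34e-05). In MC38-LM3b it was 0.24 after the correction, and 0.23 on centred values, just short of the threshold (adjusted p = 0.05001).

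Ppt1, which removes palmitate from proteins, had 51.7, 53.2 and 47.6 TPM in MC38-P, 67.7, 66.8 and 75.1 in MC38-LM3a and 77.7, 82.1 and 82.1 in MC38-LM3b. The 3 ranges were separate, with changes of 0.45 ± 0.07 (adjusted p = 0.00123) and 0.66 ± 0.07 (adjusted p = 8.84e-05). On centred values the changes were 0.45 and 0.43, and the difference between the derivatives was -0.02 (adjusted p = 0.861). Psap, the precursor of the saposins that present sphingolipids to their hydrolases, had 322, 309.8 and 268 TPM in MC38-P, 345, 331 and 411 in MC38-LM3a and 465, 452 and 450.5 in MC38-LM3b. Here too the ranges were separate, with 0.27 ± 0.09 (adjusted p = 0.0463) and 0.61 ± 0.09 (adjusted p = 0.000461). Without MC38-LM3a replicate 3 the MC38-LM3a change was 0.17 (adjusted p = 0.0782). On centred values the changes of Psap were 0.27 and 0.38. Grn, the precursor of the granulins, which are made in lysosomes, had 241, 237 and 196 TPM in MC38-P, 253, 241 and 290.5 in MC38-LM3a and 331, 325 and 338 in MC38-LM3b. Its lowest MC38-LM3a library barely exceeded its highest MC38-P library, and the changes were 0.22 ± 0.09 (adjusted p = 0.0936) and 0.57 ± 0.09 (adjusted p = 0.000736). Asah1, the acid ceramidase, ran from 122 to 146 TPM in MC38-P, from 140.2 to 165 in MC38-LM3a and from 165 to 175 in MC38-LM3b, with changes of 0.14 (adjusted p = 0.237) and 0.34 (adjusted p = 0.00783). The corrected changes were 0.24 (adjusted p = 0.00111) and 0.41 (adjusted p = 2.94e-05) for Grn, which then passed in both, and 0.10 (adjusted p = 0.0340) and 0.09 (adjusted p = 0.0565) for Asah1, which then passed in MC38-LM3a alone. On centred values the MC38-LM3b change of Asah1 was 0.12 (adjusted p = 0.0770).

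Of the 2 transcription factors, Tfeb was lower in both derivatives, and Tfe3 was called higher in MC38-LM3b but not in MC38-LM3a. The Tfe3 difference between the derivatives did not pass on the deposited values (0.30, adjusted p = 0.119). Tfeb was at 10.2, 10.4 and 9.94 TPM in MC38-P, at 5.61, 5.90 and 6.45 in MC38-LM3a and at 7.99, 6.34 and 5.60 in MC38-LM3b. All 6 derivative libraries were below all 3 parental ones, as for 12.3% of all tested genes, and the derivatives overlapped each other. Its log2 fold changes were -0.68 ± 0.13 (adjusted p = 0.00262) and -0.56 ± 0.13 (adjusted p = 0.00513), and the corrected changes were -0.57 and -0.66. Tfeb was the only member called lower in both derivatives on the deposited values. Tfe3, its relative, ran from 32.4 to 39.6 TPM in MC38-P, from 33.1 to 39.5 in MC38-LM3a and from 41.5 to 46.7 in MC38-LM3b. Its changes were -0.01 (adjusted p = 0.975) and 0.29 (adjusted p = 0.0340), the latter 0.09 after the correction (adjusted p = 0.142) and 0.07 on centred values (adjusted p = 0.358), passing in neither. The protein level, the phosphorylation and the location of either factor were not measured here.

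The genes that start and shape the autophagosome were uneven. Of 5, Wipi1 alone was higher in MC38-LM3a (20%, near the 14.1% of all tested genes), and Wipi1, Ulk1 and Becn1 were higher in MC38-LM3b (60%, beside 35.6%). Wipi1, whose product binds phosphatidylinositol 3-phosphate on the forming membrane, had 18.4, 19.2 and 15.8 TPM in MC38-P, 32.2, 28.6 and 36.6 in MC38-LM3a and 37.8, 38.1 and 39.5 in MC38-LM3b. The derivative libraries all stood well above the parental range. The changes were 0.83 ± 0.11 (adjusted p = 0.000273) and 1.08 ± 0.11 (adjusted p = 4.03e-05), and the corrected changes were 0.81 and 0.92.

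Ulk1, the initiating kinase, had 9.77, 9.13 and 5.81 TPM in MC38-P, 9.22, 8.40 and 12.4 in MC38-LM3a and 14.5, 14.2 and 14.4 in MC38-LM3b. It has the longest transcripts of the members, 4397 bases as a median, and the widest spread in MC38-P and MC38-LM3a, with coefficients of variation of 25.8% and 20.9%. Its changes were 0.26 ± 0.18 (adjusted p = 0.322) and 0.76 ± 0.18 (adjusted p = 0.00658), and after the correction it was higher in both, by 0.37 (adjusted p = 0.00277) and 0.53 (adjusted p = 0.000228). Becn1, of the lipid kinase complex, ran from 96.5 to 114 TPM in MC38-P, from 113 to 134 in MC38-LM3a and from 124 to 136 in MC38-LM3b, with changes of 0.22 (adjusted p = 0.0891) and 0.34 (adjusted p = 0.00935). After the correction Becn1 was higher in MC38-LM3a too (0.16, adjusted p = 0.0429), and on centred values its MC38-LM3b change did not pass (0.12, adjusted p = 0.111). Atg5 and Atg7, which conjugate LC3 to lipid, passed in neither derivative, with Atg5 at 26.3 to 34.3 TPM and Atg7 at 9.65 to 13.0 TPM over all 9 libraries. The Atg5 changes were 0.06 and -0.05, and in MC38-LM3b it was lower after the correction, at -0.29 (adjusted p = 0.00728). The Atg7 changes were 0.17 (adjusted p = 0.281) and 0.24 (adjusted p = 0.0958).

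Among the proteins that decorate the autophagosome, both LC3-family genes were higher in both derivatives, as were 13.3% of all tested genes, and the cargo adaptor was not called. Map1lc3b, which encodes LC3B, had 58.7, 61.4 and 62.4 TPM in MC38-P, 81.4, 80.5 and 73.1 in MC38-LM3a and 78.7, 78.2 and 79.8 in MC38-LM3b. The changes of 0.36 ± 0.07 (adjusted p = 0.00246) and 0.37 ± 0.07 (adjusted p = 0.00140) were alike in size, and MC38-LM3a replicate 3 was the lowest rather than the highest of its group. Gabarapl1 had 87.1, 84.8 and 87.8 TPM in MC38-P, 111, 108 and 100.2 in MC38-LM3a and 116, 113 and 107 in MC38-LM3b, with changes of 0.29 ± 0.06 (adjusted p = 0.00623) and 0.37 ± 0.06 (adjusted p = 0.00118). Its libraries separated the derivatives from MC38-P. Centred on the library medians, the MC38-LM3b changes were 0.15 (adjusted p = 0.317) for Map1lc3b and 0.14 (adjusted p = 0.303) for Gabarapl1, whose MC38-LM3a change also missed the threshold (0.29, adjusted p = 0.0595).

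Sqstm1 encodes p62, which links ubiquitinated cargo to LC3. It was at 931, 989 and 1045 TPM in MC38-P, at 1083, 1111 and 1083 in MC38-LM3a and at 1072, 1073 and 1127 in MC38-LM3b. All derivative libraries were above all parental ones, by a margin smaller than the parental spread. The changes of 0.15 ± 0.05 (adjusted p = 0.0710) and 0.14 ± 0.05 (adjusted p = 0.0515) missed the threshold, and after the correction they were 0.14 and 0.00. Without MC38-LM3a replicate 3 in the fit, the MC38-LM3b change passed (0.14, adjusted p = 0.0306).

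**Figure D3:**
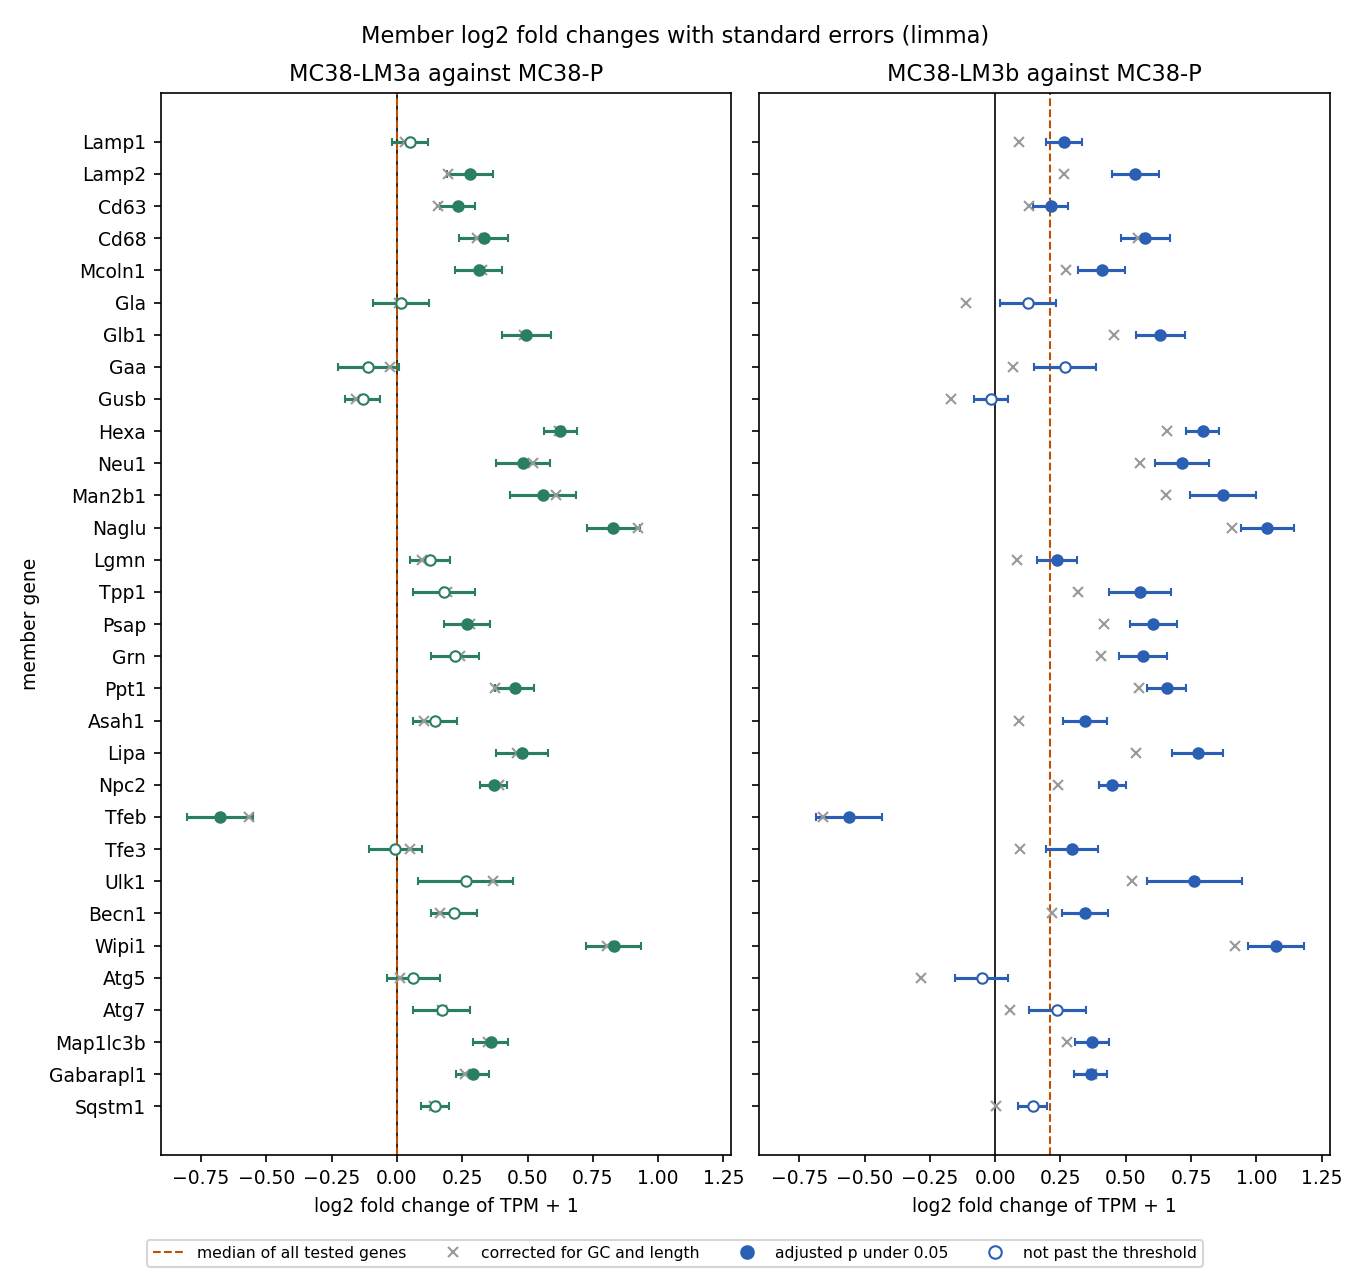
Points give the log2 fold change of each member against MC38-P on log2(TPM + 1), with bars of 1 standard error from limma, filled where the adjusted p is under 0.05, and crosses give the change after the correction for GC content and length. The dashed line is the median of all tested genes (0.00 on the left and 0.21 on the right), and most crosses in the right panel lie to the left of their points.

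Taken by separation of the libraries rather than by a test, 18 members had all 6 derivative libraries above all 3 MC38-P libraries, beside 19.1% of all tested genes, and 1 member, Tfeb, had all 6 below, beside 12.3%. These 18 were the 16 called in both derivatives plus Grn and Sqstm1. The summed level of the 31 members was 4270 to 4290 TPM in the MC38-P libraries, 4872 to 5063 in MC38-LM3a and 5255 to 5419 in MC38-LM3b, a sum that Cd63 and Sqstm1 dominate. Centred on the library medians, 14 members were higher and 3 lower in MC38-LM3b, beside 22.9% and 26.4% of all tested genes. The 3 lower were Gusb (-0.24, adjusted p = 0.0163), Tfeb (-0.78, adjusted p = 0.000328) and Atg5 (-0.27, adjusted p = 0.0204). Glb1, Hexa, Lipa, Man2b1, Naglu, Neu1, Ppt1 and Wipi1 were called higher, and Tfeb lower, in both derivatives under every one of the 19 alternatives tried.

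The derivatives were then compared with each other. No member passed (0 higher and 0 lower by limma, beside 0.0354% and 0.0177% of all tested genes), and the lowest adjusted p of a member was 0.119. At an unadjusted p under 0.05, 16 members were higher in MC38-LM3b and 0 were lower, beside 38.1% of all tested genes in either direction. All 3 MC38-LM3b libraries were above all 3 MC38-LM3a libraries for 18 members, beside 38.4% of all tested genes. The largest differences were those of Ulk1, 0.50 ± 0.18, Gaa, 0.38 ± 0.12, and Tpp1, 0.37 ± 0.12. In all 3 genes MC38-LM3a replicate 3 stood above its replicates, as for 74.5% of all tested genes. The differences were 0.65, 0.50 and 0.52 with MC38-LM3a replicate 3 left out. Without that library, 16 members were higher in MC38-LM3b, but so were 52.2% of all tested genes, and with MC38-P replicate 3 also left out 23 were, beside 65%. The median member difference was 0.20 on the deposited values, beside 0.21 for all genes, and 0.04 after the correction, beside -0.01 for all genes.

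The wider lysosome and autophagy system was read from lists of 147 other genes, of which 143 were listed and 139 tested. Of these, 38 were higher and 11 lower in MC38-LM3a (27.3% and 7.91%, beside 14.1% and 13.8% of all tested genes), and 82 were higher and 8 lower in MC38-LM3b (59.0% and 5.76%, beside 35.6% and 11.2%). In both, 37 were higher and 8 lower (26.6% and 5.76%, beside 13.3% and 9.07%). After the correction, 65 were higher and 15 lower in MC38-LM3a (46.8% and 10.8%, beside 26.7% and 25%) and 67 higher and 17 lower in MC38-LM3b (48.2% and 12.2%, beside 29.2% and 28.7%). Centred on the library medians, 52 were higher and 15 lower in MC38-LM3a (37.4% and 10.8%, beside 19.8% and 20.1%) and 53 higher and 16 lower in MC38-LM3b (38.1% and 11.5%, beside 22.9% and 26.4%). The medians on the deposited values were 0.13 and 0.37, and 0.15 and 0.16 after the correction. Of 25 other hydrolases and their activators, 12 were higher in MC38-LM3a and 18 in MC38-LM3b, with none lower in either by limma on the deposited values, although 1 and 2 were lower after the correction. Manba, the lysosomal beta-mannosidase, moved more than any of the 31 members: it was at 8.07, 7.22 and 6.51 TPM in MC38-P, 17.2, 17.7 and 19.5 in MC38-LM3a and 22.1, 23.2 and 23.8 in MC38-LM3b, with log2 fold changes of 1.21 ± 0.10 and 1.54 ± 0.10 (adjusted p = 1.77e-05 and 2.31e-06). Of 42 other autophagy genes, 13 were higher and 1 lower in MC38-LM3a, and 30 were higher and 1 lower in MC38-LM3b. The counts higher were 26 for MC38-LM3a and 23 for MC38-LM3b after the correction (61.9% and 54.8%, beside 26.7% and 29.2%). On centred values they were 20 and 19 (47.6% and 45.2%, beside 19.8% and 22.9%), with 2 or 3 lower in each case. Bnip3, a mitophagy receptor, led them, with 46.2 to 54.4 TPM in MC38-P against 85.0 to 89.7 in MC38-LM3a and 87.4 to 90.9 in MC38-LM3b (0.83 ± 0.07 and 0.84 ± 0.07).

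The counts of the other lists follow, without a test between lists. Of 17 subunits of the V-ATPase, the proton pump that acidifies the lysosome, 6 were higher and 1 lower in MC38-LM3a (35.3% higher, beside 14.1% of all tested genes). In MC38-LM3a, 7 were higher after the correction (41.2%, beside 26.7%) and 4 on centred values (23.5%, near the 19.8% of all tested genes). On the deposited values 11 were higher and 1 lower in MC38-LM3b (64.7% higher, beside 35.6% of all tested genes). In MC38-LM3b, 9 were higher and 1 lower after the correction (52.9% and 5.88%, beside 29.2% and 28.7%), but 2 higher and 2 lower on centred values (11.8% each, beside 22.9% and 26.4%). Atp6v0d1 was higher by 0.34 and 0.47 on the deposited values and Atp6v1c1 lower, at -0.36 and -0.24. Of 20 other membrane proteins and transporters, 5 were higher and 4 lower in MC38-LM3a (25% and 20%, beside 14.1% and 13.8% of all tested genes), and 12 were higher and 3 lower in MC38-LM3b (60% and 15%, beside 35.6% and 11.2%). After the correction these were 8 and 4 in MC38-LM3a (40% and 20%, beside 26.7% and 25%). They were 10 and 4 in MC38-LM3b (50% and 20%, beside 29.2% and 28.7%). On centred values the counts were the same, beside 19.8% and 20.1% in MC38-LM3a and 22.9% and 26.4% in MC38-LM3b. Ostm1, a partner of a lysosomal chloride transporter, rose by 0.64 and 0.78, and Laptm4b fell, its parental range of 73.3 to 79.4 TPM standing against 30.6 to 34.3 in MC38-LM3a and 36.5 to 38.2 in MC38-LM3b (-1.21 and -1.03). The 11 genes of mannose 6-phosphate sorting, the route by which many of these hydrolases reach the lysosome, gave 0 higher and 2 lower in MC38-LM3a (18.2% lower, beside 13.8% of all tested genes, of which 14.1% were higher). In MC38-LM3b they gave 2 higher and 1 lower, where 18.2% were higher beside 35.6% of all tested genes. Gga2, a sorting adaptor, was lower in both, at -0.58 and -0.40.

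Of 24 genes that control mTORC1 or the MiT/TFE factors, 2 were higher and 3 lower in MC38-LM3a (8.33% and 12.5%) and 9 higher and 2 lower in MC38-LM3b (37.5% and 8.33%). These shares are near or below those of all tested genes, 14.1% and 13.8% in MC38-LM3a and 35.6% and 11.2% in MC38-LM3b. After the correction 6 were higher in each derivative (25%, beside 26.7% and 29.2%). Fnip1, a partner of folliculin, rose by 0.46 and 0.97. Deptor, an inhibitor of mTOR, had 21.4, 19.2 and 13.8 TPM in MC38-P, 5.11, 4.79 and 7.81 in MC38-LM3a and 7.70, 7.04 and 7.60 in MC38-LM3b, and was lower in both, at -1.47 ± 0.19 and -1.16 ± 0.19 (adjusted p = 0.000249 and 0.000765). Deptor, Laptm4b, Atp6v1c1 and Atg101, the largest falls of their 4 lists among genes called in both derivatives, all lie on chromosome 15, where 464 tested genes had a median of -0.53 (MC38-LM3a) and -0.31 (MC38-LM3b). None of the 31 members is on chromosome 15, and the part of that chromosome-wide shift in these 4 falls was not tested.

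**Figure D4:**
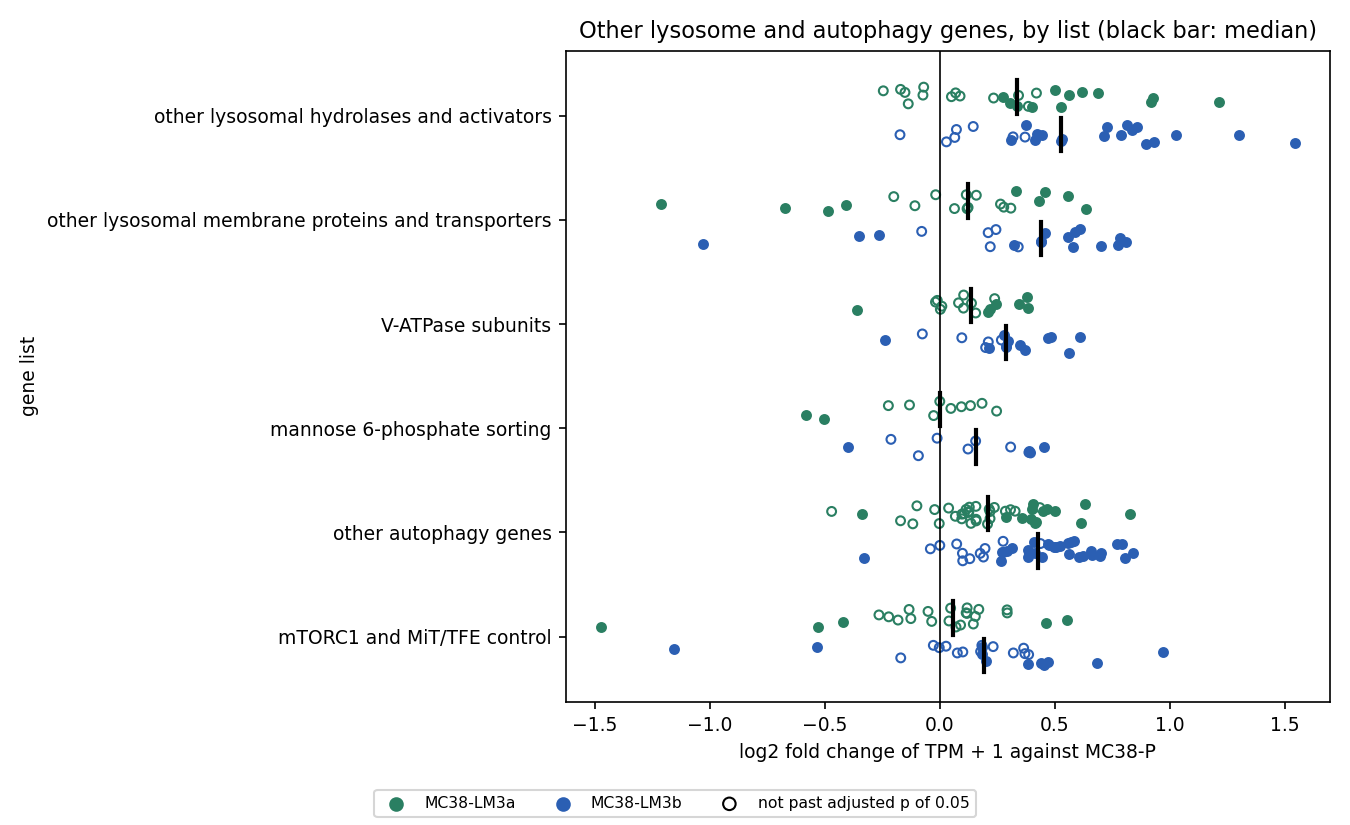
Each point is 1 of 139 tested lysosome or autophagy genes outside the 31, placed by its list and its log2 fold change of TPM + 1 against MC38-P, filled where the adjusted p is under 0.05, with a black bar at the median of each list. The hydrolases have the highest medians, 0.34 and 0.53, and the genes of mannose 6-phosphate sorting the lowest, 0.00 and 0.16.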

How the data were processed

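Poly(A) RNA of 9 libraries, 3 from each of the parental and both derivative lines, was sequenced on the DNBSEQ platform, and groups were taken from the sample titles. Each deposited table gives TPM per gene for 1 library, rounded to 2 decimals. The submitters' processing notes name HISAT and GRCm39; the quantification tool and annotation are not given in the sources used here. The study names DESeq2 for its differential analysis, which needs counts that the files do not hold. Depth is therefore unknown, no counting intervals are given, and between 10875 and 11218 genes per library reached 1 TPM.

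Genes that reached 1 TPM in 3 or more libraries entered limma 3.58.1 (R 4.3.3) on log2(TPM + 1), with 1 mean per group, a trended prior variance and p-values adjusted after Benjamini and Hochberg over 11287 genes. A call is an adjusted p under 0.05, and fold changes are on the log2(TPM + 1) scale, which understates changes of low genes. In the correction for GC content and length, a loess trend (span 0.3) of each library on both was removed, using median values over GENCODE M21 basic transcripts of GRCm38 for 98.3% of tested genes, so lengths are those of another build than the authors'. The alternatives were pseudocounts of 0.1 and 0.5, no filter, the compared groups alone, a replicate block, the correction, quantile normalization, median centring and leaving out libraries. The fitting was tested on simulated data with independent noise for each gene. Those data held no trend along transcript length and no shift of the median gene, so they do not bear on either. Promoter windows are from RefSeq (GRCm38.p6).

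The members and all gene lists were chosen with earlier results of these data known. The text gives values per library for members called in the same direction in both derivatives, past the fold threshold, or set by name (Lamp1, Cd68, Tfeb, Tfe3, Sqstm1 and Map1lc3b), ranges or values for the rest, and from each wider list the largest rise and fall among genes called in both derivatives.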

Additional observations from a re-analysis of the deposited data

How the results depend on the processing

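Of 1767 member fold changes recomputed over 3 comparisons and 19 alternatives, 1612 kept their side of the threshold, 77 lost their call, 77 gained one and 1 lost its call with a change of sign near 0: Cd63 in MC38-LM3b, -0.011 under median centring (adjusted p = 0.957). A further 84 values that passed in neither setting changed sign. In MC38-LM3a, 16 members were called higher, or 11 to 15 with each library left out in turn. For MC38-LM3b the count was 24, or 21 to 26. No shares of all tested genes are given for these fits with 1 library left out, so the ranges describe the member calls only. The MC38-LM3b count was 14 under median centring, beside 22.9% of all tested genes. The 1 member called lower in each derivative became 2 in MC38-LM3a under the correction for GC content and length, with or without the replicate block, and 3 with replicate 3 of MC38-P and of MC38-LM3a both left out, an alternative added after seeing the data. In MC38-LM3b it became 3 under the correction, with or without the block, under quantile normalization and under median centring. Between the derivatives, the count of 0 higher became 16 without MC38-LM3a replicate 3, beside 52.2% of all tested genes. It was 0 to 16 over the libraries left out in turn. Without replicate 3 of both MC38-P and MC38-LM3a it was 23, beside 65%. Whether replicate numbers pair the libraries was not settled by these values. Deviations of same-numbered libraries correlated at -0.336, -0.165 and -0.662 between MC38-P and MC38-LM3a. They correlated at 0.064, 0.058 and 0.035 between MC38-P and MC38-LM3b, and at 0.057, 0.075 and 0.068 between the derivatives, none over 0.1. Every library correlated best with its own number in both comparisons with MC38-LM3b, a hint from the data and not the design, and none did between MC38-P and MC38-LM3a. With the replicate block, 12 (MC38-LM3a) and 21 (MC38-LM3b) members were higher, beside 9.75% and 26% of all tested genes. With only the compared groups in the fit, these were 11 and 26, beside 9.24% and 42.3%. Without counts, the part of sequencing depth in these values could not be estimated.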
